A study of Mus musculus with 6 samples.

Results

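A set of 30 genes of sterol synthesis, its control by the sterol regulatory element-binding proteins (SREBPs) and SREBP-driven fatty acid synthesis were read in neonatal cardiomyocytes (CMs) cultured with α-ketoglutarate (αKG). They were chosen by name, with earlier results of these data known. All 30 of 30 were found by gene symbol among the 20066 genes of the deposited table. The members comprised 7 genes of the mevalonate arm, 11 of the sterol arm, 5 of the SREBP machinery, 2 of sterol transport and 5 of fatty acid synthesis. The study compared 2 groups of 3 RNA-seq libraries each. Both were of CMs isolated from C57BL/6 mice at P0-1, and both were cultured for 96 h before RNA was taken, 1 group with the solvent dimethylsulfoxide (DMSO) and the other with cell-permeable αKG, at 100 µM according to the labels. αKG is a Krebs cycle intermediate and a co-substrate of many dioxygenases, and the question was whether it keeps CMs immature and dividing. The cells were primary cultures of dissociated hearts, so that non-myocytes may be present. By the study's methods, a sample of neonatal CMs stands for an isolation from pooled hearts, so no library is a single animal, and the labels do not tie libraries to isolations. The p-values measure the spread between these libraries.

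Cholesterol is made from acetyl-CoA through mevalonate and squalene. Cells sense it in the membrane of the endoplasmic reticulum. When sterols are scarce, the escort protein SCAP carries the SREBP precursors to the Golgi, where they are cleaved, and the released factors switch on genes of sterol synthesis and uptake (mainly SREBP2) and of fatty acid synthesis (mainly SREBP1c). When sterols are plentiful, INSIG proteins hold SCAP back. Growing and dividing cells, among them cardiac cells before and shortly after birth, need sterols and fatty acids for new membrane.

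Values are the authors' normalized read counts per gene, rounded to whole numbers, and the estimated depth was 3726069 to 4427587 reads in genes per library. All 30 members had a mean of at least 10 normalized counts, with single values between 15 and 2590. αKG replicate 3 stood apart: across all genes its log2 values correlated at 0.977 to 0.98 with the DMSO libraries and at 0.962 and 0.963 with the other αKG libraries. Between DMSO replicates 2 and 3, the differences stayed within sampling noise over 13077 genes (chi-square of 1.02 per gene, p = 0.103), and so did those over the 30 members (0.423 per gene, p = 0.998). They did differ in 10 proliferation genes (chi-square of 11.2 per gene, p = 1.79e-19) and were therefore kept as separate samples, with the result for their average given beside the counts. Counts of calls among the members, the other pathway genes and the main cell type markers are given with and without αKG replicate 3.

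Most sterol and SREBP-regulated genes had higher values in αKG than in DMSO. *Stard4*, *Elovl6*, *Acaca* and *Insig1* rose by 1.8-fold or more, *Scd2*, *Sqle*, *Cyp51* and *Srebf1* rose by 1.37- to 1.61-fold, and *Hsd17b7* fell to 0.7-fold. Of the 30 members, 8 were higher and 1 was lower at a Benjamini-Hochberg adjusted p under 0.05 (limma on log2(normalized count + 1), adjusted over all genes), and 21 did not pass. Of all genes, 2.83% passed as higher, 0.952% as lower and 3.78% in either direction. The αKG libraries lay above every DMSO library in 18 members and below every one in 3, against 13.7% and 14.6% of all genes, and the groups overlapped in 9. The median log2 fold change of the members was 0.34, against 0.04 for all genes and -0.03 for the 13409 genes with a mean of at least 10 normalized counts, and 25 of 30 members had a positive value. Without adjustment, 17 members had a p under 0.05, where 28.1% of all genes did. Without αKG replicate 3, 17 members were called higher and 3 lower, where 19.3% and 17.9% of all genes were.

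The number of calls depended on which libraries were fitted, while the fold changes of the called members moved less. With limma, 0 members passed without αKG replicate 1, without αKG replicate 2, without DMSO replicate 2 or without DMSO replicate 3. In the same order, 17, 14, 14 and 15 members still had an unadjusted p under 0.05. Of all genes, 3324, 3244, 3564 and 3219 of 20066 did. Without DMSO replicate 1, 3 members passed, namely *Insig1*, *Stard4* and *Elovl6*. With DMSO replicates 2 and 3 averaged into 1 sample 0 passed, with 14 members and 3518 of all genes at an unadjusted p under 0.05. In the same fits the number of all genes called also fell, to between 0 and 152. Over the fits without 1 library, the log2 fold change stayed between 0.80 and 0.92 for *Insig1*, 0.84 and 0.95 for *Stard4*, 0.60 and 0.68 for *Sqle* and 0.93 and 1.15 for *Elovl6*. It moved more for *Scd2* (0.57 to 0.91) and *Acaca* (0.81 to 1.23), and was 0.47 to 0.62 for *Cyp51*, 0.37 to 0.52 for *Srebf1* and -0.64 to -0.45 for *Hsd17b7*.

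Other processing also took calls away. With a pseudocount of 0.1, *Srebf1*, *Hsd17b7*, *Scd2* and *Acaca* missed the threshold by limma (adjusted p = 0.0537, 0.0537, 0.0613 and 0.0538). With limma-voom on estimated reads *Srebf1*, *Scd2* and *Acaca* missed it (adjusted p = 0.0603, 0.0668 and 0.0615). With 1 prior variance for all genes, whatever their mean, limma called 0 members. In that fit 16 members and 4160 of all genes had an unadjusted p under 0.05.

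**Figure D1:**
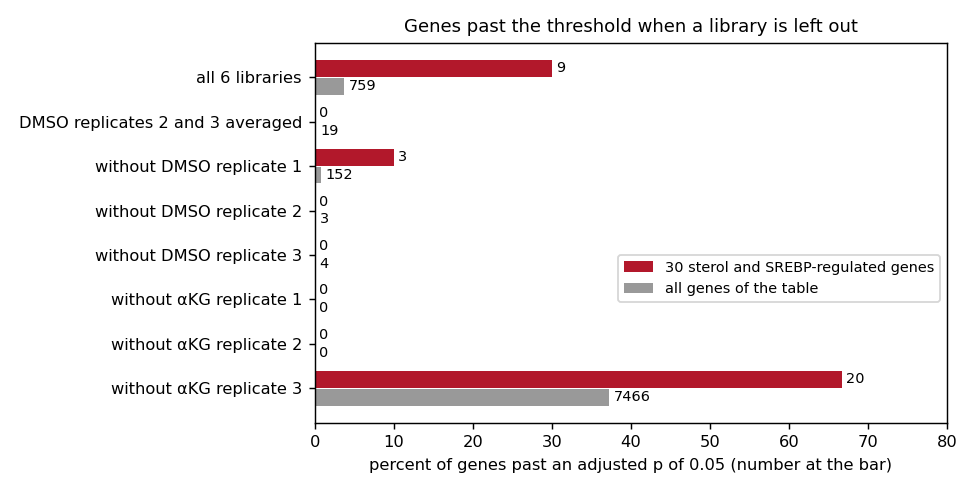
Share of genes past an adjusted p of 0.05 (x axis, percent; the number of genes stands at each bar) among the 30 sterol and SREBP-regulated genes (red) and among all 20066 genes of the table (grey), with all 6 libraries, with DMSO replicates 2 and 3 averaged and with each library left out (y axis). With all libraries 9 members and 759 genes passed, without αKG replicate 3 the numbers were 20 and 7466, and both fell to 0 without αKG replicate 1 or 2.

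**Figure D2:**
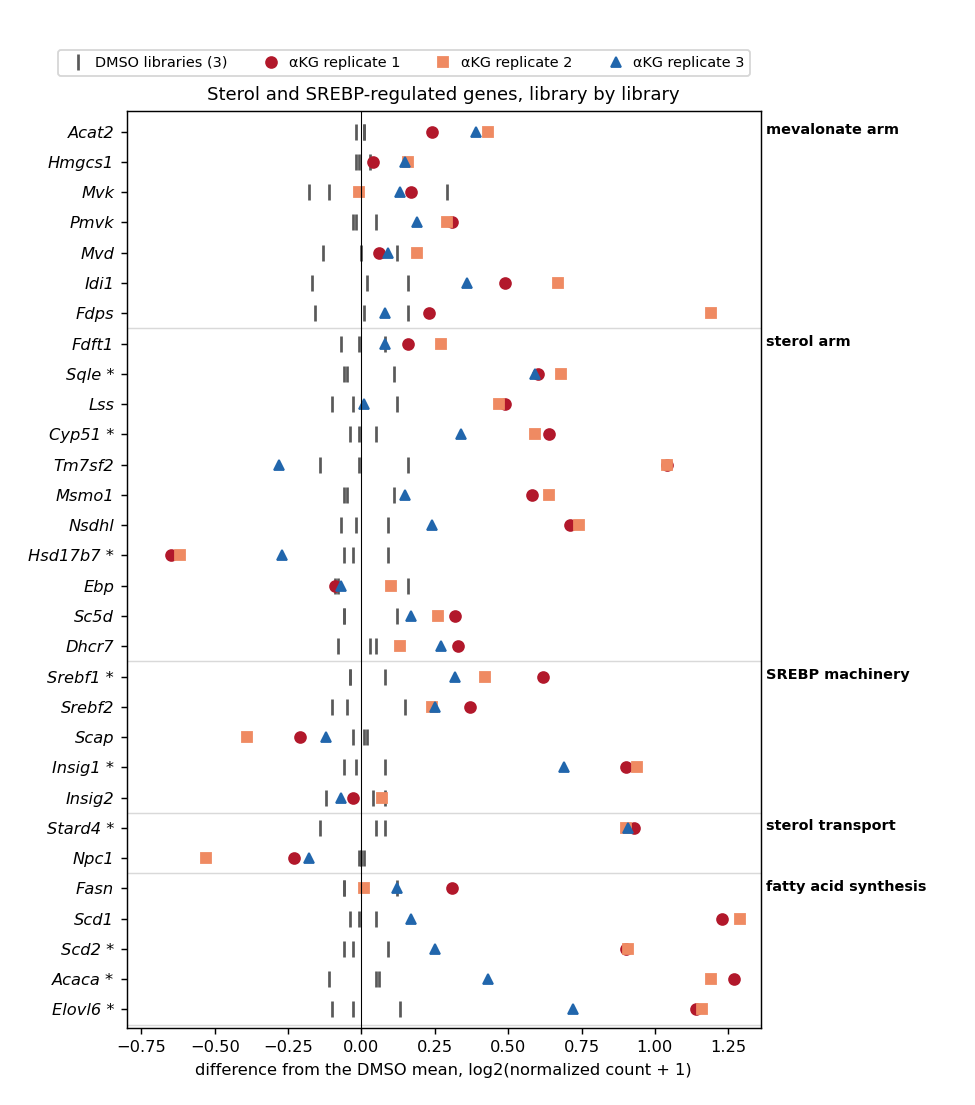
Difference of each library from the DMSO mean (x axis, log2(normalized count + 1)) for the 30 members (y axis, grouped by role), with the DMSO libraries as bars and αKG replicates 1, 2 and 3 as a circle, a square and a triangle. An asterisk marks the 9 members past the adjusted threshold. For *Stard4* and *Sqle* the 3 αKG libraries lie together, whereas for *Scd1*, *Scd2* and *Acaca* replicate 3 lies closer to the DMSO libraries.

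Among the regulators, *Insig1* stood out. It encodes the INSIG protein that is itself an SREBP target and so closes a feedback loop (ENSMUSG00000045294, GRCm38 chromosome 5, 28071363 to 28078662). *Insig1* had 257, 240 and 233 normalized counts in the DMSO libraries and 456, 468 and 392 in the αKG libraries, each in the order of replicates 1 to 3. Every αKG library was thus well above every DMSO library, with replicate 3 the lowest of the αKG libraries. The means were 243 ± 12.3 and 439 ± 40.9 (SD, n = 3 each), and the log2 fold change was 0.84 ± 0.10 (SE; adjusted p = 0.00624 by limma). *Insig2*, the paralogue with the same retention function, had 300, 310 and 269 in DMSO and 287, 308 and 278 in αKG. The groups overlapped fully (log2 fold change -0.01, 95% confidence interval -0.22 to 0.20). Within each library, the ratio of *Insig1* to *Insig2* was 0.857, 0.774 and 0.866 in DMSO and 1.59, 1.52 and 1.41 in αKG, so that *Insig1* went from the lower to the higher value of the pair in all 3 αKG libraries.

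*Srebf1* encodes SREBP1a and SREBP1c (ENSMUSG00000020538, chromosome 11, 60199089 to 60222581). It had 327, 302 and 301 normalized counts in the DMSO libraries and 477, 416 and 388 in αKG. The groups did not overlap, and the gene was higher by a log2 fold change of 0.46 ± 0.10 (SE; adjusted p = 0.0416 by limma). *Srebf2*, which encodes SREBP2, had 652, 567 and 546 in DMSO and 759, 694 and 699 in αKG. All αKG values were higher, but the gene did not pass (log2 fold change 0.29, adjusted p = 0.0797 by limma). It passed only when αKG replicate 3 was left out or when GC content and length were corrected for. The ratio of *Srebf1* to *Srebf2* was 0.502, 0.533 and 0.551 in DMSO and 0.628, 0.599 and 0.555 in αKG, with replicate 3 barely above the highest control. *Scap*, the escort protein, pointed the other way with 264, 272 and 271 against 233, 205 and 247 (log2 fold change -0.24, adjusted p = 0.157 by limma), and it passed as lower without αKG replicate 3 (adjusted p = 0.023 by limma). Within *Scap*, a stretch of 985 bases, 13.2% of its exon length, overlaps a gene on the opposite strand, and 12 of the 30 members overlap exons of another gene somewhere. The sources do not say whether strand was used in counting, and the counts near such overlaps are uncertain.

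In the sterol arm, from the making of squalene to cholesterol, 2 of 11 members rose, 1 fell and 8 did not pass, with a median log2 fold change of 0.33. *Sqle*, squalene epoxidase, a rate-limiting enzyme of the arm (ENSMUSG00000022351, chromosome 15, 59315077 to 59331192), had 175, 156 and 157 normalized counts in the DMSO libraries and 247, 261 and 245 in αKG. The 3 αKG libraries differed little from each other and all lay above the DMSO range, and the log2 fold change was 0.62 ± 0.10 (SE; adjusted p = 0.0204 by limma). *Cyp51*, lanosterol 14α-demethylase (ENSMUSG00000001467, chromosome 5, 4081145 to 4104746), had 452, 433 and 424 in DMSO and 680, 658 and 552 in αKG. It was higher by 0.52 ± 0.09 (log2 fold change ± SE, adjusted p = 0.027 by limma), with replicate 3 the lowest αKG library.

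*Hsd17b7* was the called member that fell. It encodes the 3-ketosteroid reductase of the pathway, which also converts estrone to estradiol (ENSMUSG00000026675, chromosome 1, 169949535 to 169969241). It had 615, 630 and 687 normalized counts in the DMSO libraries and 409, 418 and 532 in αKG. All αKG libraries were below the DMSO range, and the log2 fold change was -0.52 ± 0.11 (SE, adjusted p = 0.0389 by limma). Per kilobase of exon it had the highest DMSO level of the sterol arm, 126 normalized counts, above *Cyp51* with 98.8, and in αKG the order was reversed, with 88.8 against 143. Of the windows of 75 bases (the read length in the study's methods) in *Hsd17b7* transcripts, 0 also occurred in a transcript of another gene.

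Several sterol enzymes differed mainly in αKG replicates 1 and 2. *Msmo1*, the C4-methylsterol oxidase, had 280, 250 and 251 normalized counts in DMSO against 388, 405 and 289. *Nsdhl*, the decarboxylase that follows it, had 90, 93 and 101 against 155, 159 and 112. In both the groups did not overlap, and neither passed (limma adjusted p = 0.0761 and 0.0725). *Lss*, lanosterol synthase, had 170, 146 and 153 against 220, 217 and 157, and *Tm7sf2*, a sterol C14 reductase, 23, 26 and 21 against 49, 49 and 19, so that replicate 3 lay within or below the DMSO range. Without αKG replicate 3 all 4 passed as higher, with limma adjusted p = 0.00204 for *Msmo1*, 0.00246 for *Nsdhl*, 0.00768 for *Lss* and 0.00591 for *Tm7sf2*. 

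The other 4 enzymes of the sterol arm differed less. *Sc5d*, lathosterol oxidase, had 333, 295 and 294 normalized counts in DMSO against 384, 368 and 345, and *Dhcr7*, which makes the last reduction to cholesterol, 105, 106 and 97 against 129, 112 and 124. In both every αKG library was above the DMSO range, with log2 fold changes of 0.25 and 0.24 that did not pass. *Sc5d* passed without αKG replicate 3 (adjusted p = 0.0239 by limma). *Fdft1*, squalene synthase, had 248, 224 and 234 against 263, 283 and 248, and *Ebp*, the sterol isomerase, 168, 142 and 141 against 141, 161 and 143. The groups overlapped in both, and the 95% confidence intervals of the log2 fold change were -0.05 to 0.38 for *Fdft1* and -0.29 to 0.26 for *Ebp*. Of the windows of *Fdft1*, 21.8% are shared with other genes, mostly *Ctsb*, which overlaps it.

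In the mevalonate arm, from acetyl-CoA to farnesyl diphosphate, 0 of 7 members passed (limma). Without adjustment 1 of 7 had a p under 0.05, where 28.1% of all genes did. All 7 had a positive log2 fold change, and the median was 0.26. *Hmgcs1*, which makes HMG-CoA and was the arm's highest member per kilobase (145 normalized counts in DMSO), had 664, 658 and 681 normalized counts in the DMSO libraries and 686, 747 and 743 in αKG. All αKG values were above the DMSO range by a small margin, and the 95% confidence interval of the log2 fold change was -0.03 to 0.27. *Idi1*, the isopentenyl diphosphate isomerase, had 53, 42 and 48 against 67, 76 and 61. Its groups did not overlap, and the log2 fold change was 0.50 ± 0.18 (SE, adjusted p = 0.115 by limma). *Pmvk*, phosphomevalonate kinase, had 105, 110 and 104 against 132, 130 and 121, and *Acat2*, the cytosolic thiolase at the head of the pathway, 45, 46 and 46 against 54, 62 and 60. These groups were apart too, with log2 fold changes of 0.26 and 0.35, and *Idi1* and *Pmvk* passed without αKG replicate 3 (limma adjusted p = 0.0263 and 0.0329). *Mvk*, mevalonate kinase, with 79, 60 and 57 against 73, 64 and 71, and *Mvd*, the decarboxylase, with 88, 81 and 74 against 84, 92 and 86, overlapped. *Fdps*, farnesyl diphosphate synthase, had 15, 17 and 19 against 20, 40 and 18, so that αKG replicate 2 alone was far above the others. Windows shared with other genes made up 23.5% of *Fdps*, 23.6% of *Idi1* and 33.9% of *Acat2*, whose near copy is *Acat3*. Reads of several places or genes were left out by the authors, so the levels of these 3 genes are uncertain.

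Of the sterol transport genes, *Stard4* had the most even change of all members. It encodes a carrier that moves cholesterol between membranes in the cytosol (ENSMUSG00000024378, chromosome 18, 33199355 to 33213862). It had 146, 143 and 125 normalized counts in the DMSO libraries and 264, 257 and 259 in αKG, means of 138 ± 11.4 and 260 ± 3.61 (SD, n = 3 each). The log2 fold change was 0.91 ± 0.11 (SE, adjusted p = 0.00624 by limma), and the αKG libraries were nearly equal. *Npc1*, which exports cholesterol from lysosomes, was lower in all αKG libraries, with 568, 573 and 566 against 484, 393 and 503. Its log2 fold change of -0.31 did not pass (adjusted p = 0.0881 by limma). With αKG replicate 3 left out it did (adjusted p = 0.0174 by limma), as it did with GC content and length corrected for.

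In fatty acid synthesis 3 of 5 members rose and 2 did not pass, with the highest median of the 5 roles, 0.89. *Acaca* encodes acetyl-CoA carboxylase 1, which makes malonyl-CoA (ENSMUSG00000020532, chromosome 11, 84129672 to 84401651). It had 167, 165 and 148 normalized counts in the DMSO libraries and 386, 367 and 215 in αKG, a log2 fold change of 0.96 ± 0.20 (SE, adjusted p = 0.0379 by limma). *Elovl6*, which elongates palmitate (ENSMUSG00000041220, chromosome 3, 129532355 to 129638495), had 146, 125 and 131 in DMSO and 296, 300 and 221 in αKG, the largest log2 fold change of the members at 1.01 ± 0.14 (SE, adjusted p = 0.0108 by limma). *Scd2*, a stearoyl-CoA desaturase (ENSMUSG00000025203, chromosome 19, 44293674 to 44306864), had 1468, 1343 and 1320 in DMSO and 2565, 2590 and 1631 in αKG, a log2 fold change of 0.69 ± 0.15 (SE, adjusted p = 0.0445 by limma). In all 3 genes the groups were apart and replicate 3 was the lowest αKG library.

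*Scd1*, the neighbouring desaturase on chromosome 19, had 449, 458 and 477 normalized counts in the DMSO libraries and 1080, 1129 and 518 in αKG. Replicates 1 and 2 were far above the controls and replicate 3 only slightly, and with all libraries the gene did not pass (log2 fold change 0.89 ± 0.24, SE; adjusted p = 0.0664 by limma). It passed when αKG replicate 3 was left out (adjusted p = 0.000124 by limma) and with the replicate block and the correction for GC content and length together. The ratio of *Scd1* to *Scd2* within a library was 0.306, 0.341 and 0.361 in DMSO and 0.421, 0.436 and 0.318 in αKG, so that replicate 3 lay within the control range. *Fasn*, fatty acid synthase, which uses the malonyl-CoA that *Acaca* provides, had 1307, 1152 and 1157 against 1497, 1211 and 1307. Its groups overlapped, and the 95% confidence interval of its log2 fold change was -0.05 to 0.34, so that a rise of the size seen for *Acaca* lay outside it. Per kilobase of exon, *Scd2* was the highest member in both groups, with 252 normalized counts in the DMSO libraries and 414 in αKG, and *Scd1* went from 94.3 to 186. *Acaca* shared 26.8% of its windows with other genes, mostly *Gm5182*, which had at most 4 normalized counts in any library.

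**Figure D3:**
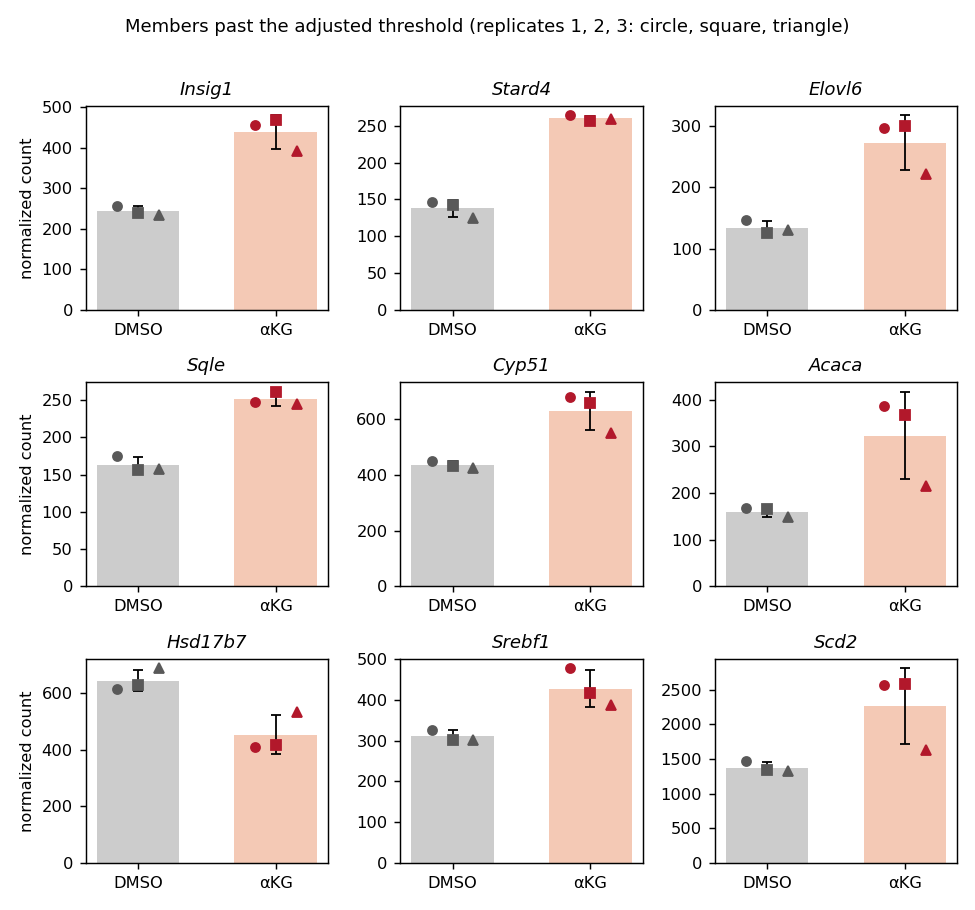
Normalized counts (y axis, from 0) of the 9 members past the adjusted threshold, in order of p. Bars are group means, error bars the SD (n = 3) and points the libraries, with replicates 1, 2 and 3 as circle, square and triangle. *Stard4* and *Sqle* show nearly equal αKG libraries, *Scd2* and *Acaca* a replicate 3 near the controls, and *Hsd17b7* the fall.

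The members differed in how far αKG replicate 3 followed the other αKG libraries. Its shift from the DMSO mean on the log2 scale was 99.1% of the mean shift of replicates 1 and 2 for *Stard4*, 92% for *Sqle* and 74.4% for *Insig1*. It was 62.7% for *Elovl6*, 62% for *Srebf1* and 55.1% for *Cyp51*, 43% for the fall of *Hsd17b7*, 34.6% for *Acaca* and 27.1% for *Scd2*. For *Scd1*, not called, it was 13.3%. The median shift of the fatty acid synthesis members was 1.14, 1.16 and 0.25 in αKG replicates 1 to 3, and that of the mevalonate arm 0.23, 0.29 and 0.15. These are descriptions of single libraries, and the difference between the roles was not tested.

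Promoter windows (250 bases before to 50 after the annotated start, RefSeq, GRCm38.p6) were found for 23 of 30 members, not for *Fdps*, *Fdft1*, *Sqle*, *Stard4*, *Npc1*, *Scd1* and *Scd2*. SREBPs bind sterol regulatory elements and some E-boxes and act together with NF-Y and Sp1. On both strands, CCAAT, the NF-Y motif, occurred in windows of 19 of 23 members, or 82.6%, against 42.5% of the 12289 genes of the table with a window. GGGCGG, the Sp1 motif, also occurred in 19 members, against 64.9% of genes. The E-box CACGTG occurred in 5 members, *Dhcr7*, *Hsd17b7*, *Insig1*, *Sc5d* and *Scap* (21.7%, against 11.2% of genes), and TCACNCCAC, a consensus of the sterol regulatory element, in 1, *Hmgcs1* (4.35%, against 1.44%). A gene counted once if any of its windows held the motif, and matches of different motifs were counted without regard to overlap. Of the 9 called members 6 had a window, and 0 of these held TCACNCCAC. A match is a run of letters and not a shown binding site.

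Windows of 3 members, chosen after their values were seen, are printed to set the window with the sterol regulatory element beside the regulator with the clearest rise and the member that fell. Capitals mark TCACNCCAC, CACGTG and CCAAT on either strand (ATTGG is CCAAT on the other strand), and each is written 5′ to 3′ on the gene's strand. The *Hmgcs1* window lies at chr13:119690101-119690400 on the + strand. The *Insig1* window lies at chr5:28071162-28071461 on the + strand. The *Hsd17b7* window lies at chr1:169969156-169969455 on the - strand.
Hmgcs1: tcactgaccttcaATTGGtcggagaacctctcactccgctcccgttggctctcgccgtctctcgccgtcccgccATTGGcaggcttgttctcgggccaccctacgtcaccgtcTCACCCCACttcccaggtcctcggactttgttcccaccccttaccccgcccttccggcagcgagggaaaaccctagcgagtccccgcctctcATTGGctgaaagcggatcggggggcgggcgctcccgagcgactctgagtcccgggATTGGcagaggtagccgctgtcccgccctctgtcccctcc
Insig1: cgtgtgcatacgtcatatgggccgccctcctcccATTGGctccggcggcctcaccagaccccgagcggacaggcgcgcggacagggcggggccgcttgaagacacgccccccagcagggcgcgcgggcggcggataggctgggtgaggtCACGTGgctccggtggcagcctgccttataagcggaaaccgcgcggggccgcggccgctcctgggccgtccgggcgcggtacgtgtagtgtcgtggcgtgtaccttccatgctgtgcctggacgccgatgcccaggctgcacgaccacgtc
Hsd17b7: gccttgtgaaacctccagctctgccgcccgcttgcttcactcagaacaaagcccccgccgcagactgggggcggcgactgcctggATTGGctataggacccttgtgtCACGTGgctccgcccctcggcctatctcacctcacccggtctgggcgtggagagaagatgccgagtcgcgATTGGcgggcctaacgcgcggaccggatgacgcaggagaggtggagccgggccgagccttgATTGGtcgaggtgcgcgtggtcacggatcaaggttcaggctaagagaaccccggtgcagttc

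*Hmgcs1*, with the element and 4 CCAAT matches in its window, had a log2 fold change of 0.12. *Insig1*, with an E-box and 1 CCAAT, rose by 0.84, and *Hsd17b7*, with an E-box and 3 CCAAT, fell by 0.52 on the log2 scale. The other members with an E-box in a window, none of them called, were *Sc5d* and *Dhcr7*, at 0.25 and 0.24, and *Scap*, at -0.24. Whether these letters go with the direction of a change was not tested.

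Other genes of the pathway were listed by role. Of 47 such genes, 4 were higher and 1 was lower, where 2.83% and 0.952% of all genes were. The other 42 did not pass, and the median log2 fold change of the 47 was 0.01. Without αKG replicate 3, 15 of the 47 were higher and 9 lower, where 19.3% and 17.9% of all genes were. Of 7 further genes of sterol synthesis and uptake 1 rose. It was *Lbr*, a lamin receptor and the other sterol C14 reductase beside *Tm7sf2*, with 178, 157 and 156 normalized counts in the DMSO libraries and 247, 236 and 241 in αKG (log2 fold change 0.56 ± 0.10, SE; adjusted p = 0.0293 by limma). Its groups were apart and the αKG libraries close to each other, whereas in *Tm7sf2* replicate 3 lay below the DMSO range.

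Of 13 further genes of fatty acid synthesis 2 rose, both desaturases that make polyunsaturated fatty acids. *Fads2* had 202, 202 and 191 normalized counts in the DMSO libraries and 516, 495 and 275 in αKG (log2 fold change 1.05 ± 0.21, SE; adjusted p = 0.035 by limma), and *Fads1* 301, 276 and 268 against 493, 465 and 342 (adjusted p = 0.0445 by limma). Both had replicate 3 as the lowest αKG library, as in *Scd2* and *Acaca*. The other 11 did not pass, among them *Acly*, which supplies cytosolic acetyl-CoA, with a log2 fold change of 0.07 (95% confidence interval -0.11 to 0.24). *Acacb*, the acetyl-CoA carboxylase of the mitochondrial surface, had 1643, 1659 and 1597 against 1514, 1274 and 1500 and a log2 fold change of -0.20 (adjusted p = 0.127 by limma), with an interval of -0.36 to -0.03 that lies below that of *Acaca*, 0.52 to 1.41.

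Of 9 genes of SREBP processing and sterol-controlled degradation 0 passed (limma). Without adjustment 2 of 9 had a p under 0.05, where 28.1% of all genes did. *Mbtps1*, the site-1 protease that makes the first cut in SREBPs, had a log2 fold change of -0.01, and *Erlin2*, a membrane protein of the endoplasmic reticulum, of 0.03 (95% confidence interval -0.17 to 0.22). Of 10 genes of sterol handling *Vldlr*, a lipoprotein receptor, rose, with 1405, 1368 and 1492 normalized counts against 2127, 2320 and 1772 (log2 fold change 0.54 ± 0.09, SE; adjusted p = 0.026 by limma). Of 8 genes of the liver X receptors (LXRs), which sense oxysterols, and of sterol efflux, *Abcg1*, a cholesterol exporter and LXR target, fell. It had 252, 248 and 258 in DMSO and 160, 147 and 160 in αKG, all 3 αKG libraries far below the DMSO range and close to each other (log2 fold change -0.70 ± 0.10, SE; adjusted p = 0.0117 by limma). *Abca1*, another exporter, did not share this, with 693, 751 and 763 against 1485, 1385 and 625.

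**Figure D4:**
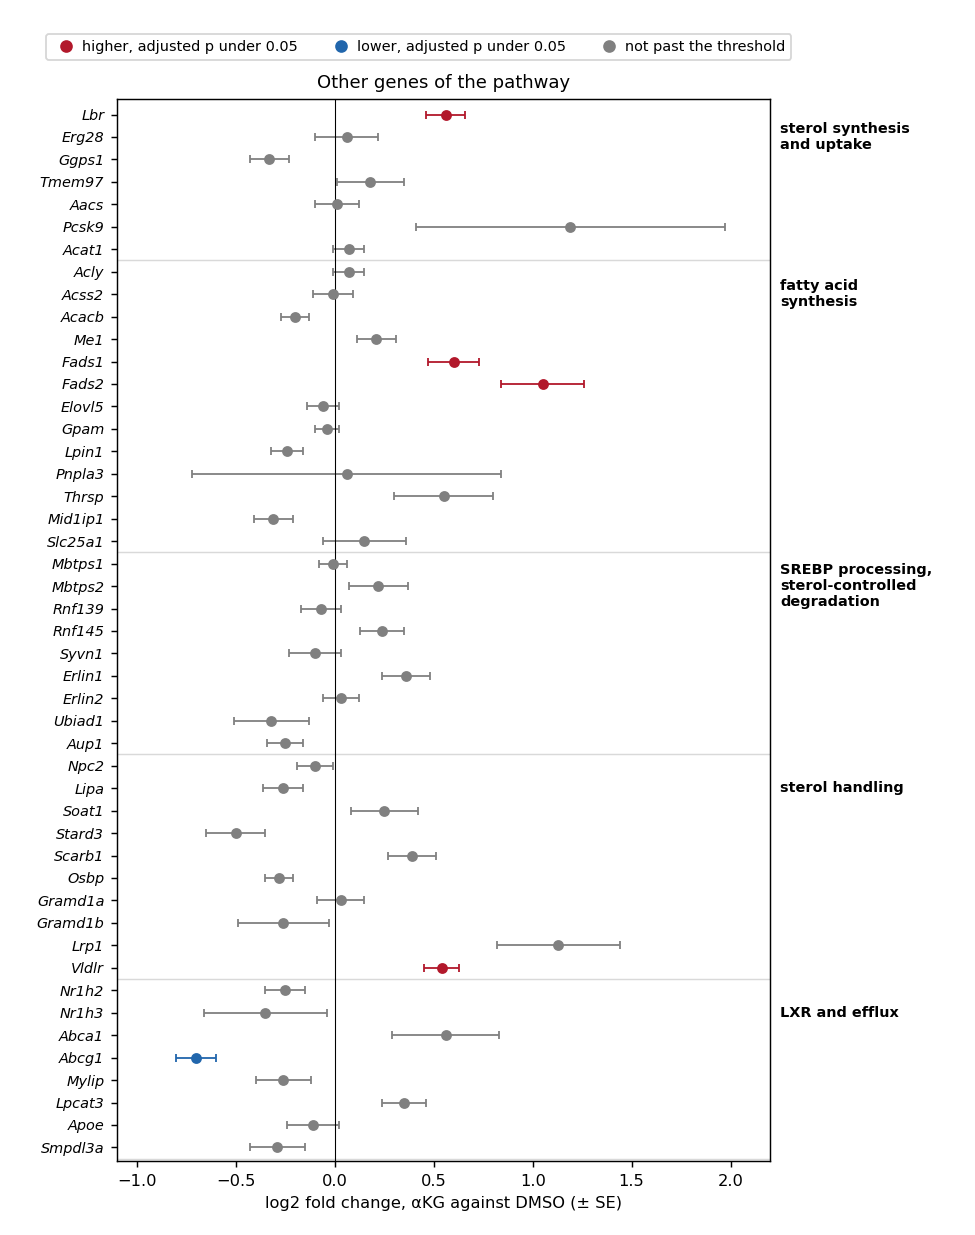
Log2 fold change of αKG against DMSO (x axis; error bars, SE) for 47 other genes of the pathway (y axis, grouped by role), with genes past an adjusted p of 0.05 in red (higher) or blue (lower) and the others in grey. The 4 red genes are *Lbr* (sterol synthesis and uptake), *Fads1* and *Fads2* (fatty acid synthesis) and *Vldlr* (sterol handling), and the blue gene is *Abcg1*.

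Markers of the cell types in the culture also moved, and their part in these results was not tested. In bulk RNA, a change in the number of cells of a type and a change in the RNA per cell cannot be told apart. All 7 cardiomyocyte markers were present, with *Ttn* and *Ryr2* the highest, summed at 73394 to 76153 normalized counts in the DMSO libraries and 106392, 109603 and 78011 in αKG replicates 1 to 3, and 0 of 7 passed (limma), with 4 at an unadjusted p under 0.05. Most of this sum was *Ttn*, with 51569, 54216 and 53157 against 80306, 84136 and 55569, and the median log2 fold change of the list was 0.13, against 0.39 for the sum. With αKG replicate 3 left out, 4 cardiomyocyte markers were called higher and 1, *Pln*, lower. In that fit, which also gave the marker counts without this library below, 19.3% of all genes were called higher and 17.9% lower. With all 6 libraries, 28.1% of all genes had an unadjusted p under 0.05, 2.83% were called higher and 0.952% lower. Fibroblast markers (7 of 7 listed, *Col1a2* and *Col1a1* among them) summed to 2555 to 2714 in DMSO and to 5726, 5591 and 2610 in αKG, with replicate 3 lowest as for *Scd1*, *Scd2* and *Acaca*, and 0 of 7 passed (limma), with 3 at an unadjusted p under 0.05. Without that library 5 of 7 were called higher. Epicardial markers (6 of 6) summed to 133 to 149 and to 640, 598 and 86, and 0 of 6 passed (limma), with 1 at an unadjusted p under 0.05. All 6 were called higher once αKG replicate 3 was left out. Endothelial markers (7 of 7, with *Cdh5* and *Kdr* the highest) summed to 1464 to 1595 and to 757, 668 and 967, with 6 of 7 called lower. Without αKG replicate 3, 6 were lower and 1 higher.

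Mural markers (6 of 6) summed to 2017 to 2130 in DMSO and 2390 to 2957 in αKG, with 1, *Cspg4*, called higher. *Acta2*, with *Cspg4* the highest of the list, had a log2 fold change of 0.08 and did not pass. Macrophage markers (4 of 7 listed, without *Adgre1*, *C1qa* and *C1qb*) summed to 22 to 35 and 24 to 41, and Schwann cell markers (3 of 3) to 37 to 43 and 40 to 67. Of 6 adipocyte markers only *Fabp4* was listed, with 25 to 29 normalized counts in the DMSO libraries and 8 to 20 in αKG, so that the defining markers *Adipoq*, *Plin1*, *Cidec*, *Lep* and *Retn* were absent from a table whose genes reach at least 2 in some library. The 10 proliferation genes summed to 6116, 4331 and 3434 in DMSO replicates 1 to 3 and to 7464, 7188 and 8082 in αKG, highest in replicate 3. Their median log2 fold change was 0.67, and the groups overlapped in 5 of the 10. *Mki67* and *Top2a* were called higher. Replicate 3 was not their highest αKG library, with 3632, 3570 and 3516 for *Mki67* and 1797, 1657 and 1732 for *Top2a* in αKG replicates 1 to 3. The 30 members summed to 9759, 9165 and 9133 in DMSO and to 12965, 12640 and 10584 in αKG.

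**Figure D5:**
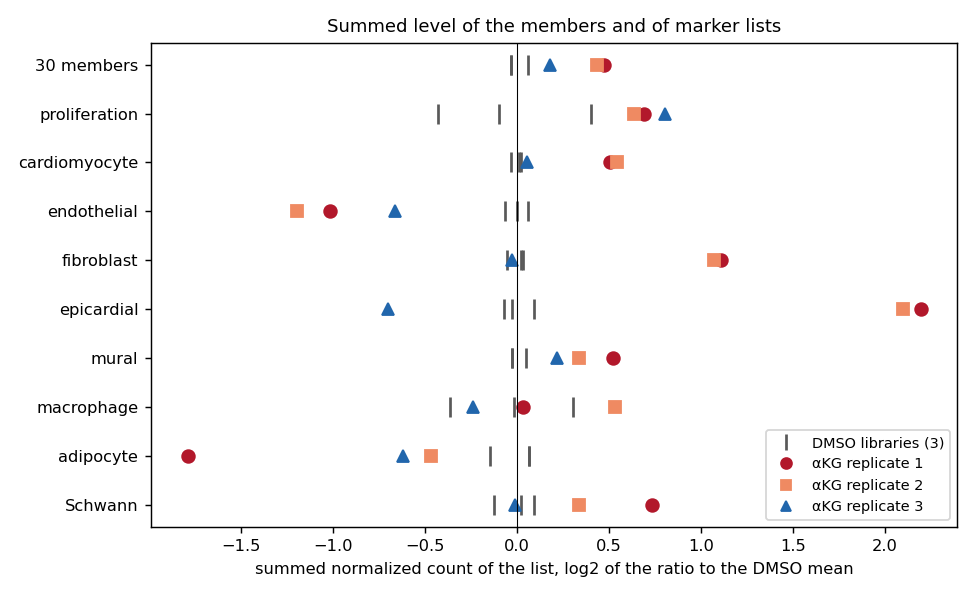
Summed normalized count of each list (y axis) in each library, as the log2 of the ratio to the DMSO mean (x axis), with DMSO libraries as bars and αKG replicates 1, 2 and 3 as circle, square and triangle. The 30 members and the cardiomyocyte, fibroblast, epicardial, mural, macrophage and Schwann cell markers have replicate 3 as the lowest αKG library. The proliferation genes and the endothelial markers have it as the highest.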

How the data were processed

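The 6 stranded total-RNA libraries were read as single ends. According to the submitters' processing notes and the study's methods, the authors used Trimmomatic 0.39, STAR 2.7.10a (mm10, GRCm38.p5), featureCounts 2.0.3 and DESeq2 1.30.1. Exonic reads were summed over each gene, and reads matching more than 1 gene or place were dropped. The values the authors deposited are treated as a score: they are read counts scaled to each library's size and rounded, so the main fit used no count model. Reads estimated from these values entered limma-voom and the chi-squares between DMSO libraries. A read was worth 0.9259 to 1.1188, estimated from the spacing of the lower values in each library, which gave the depth. The confidence intervals come from the limma fit and so reflect the spread between libraries. Duplicate PCR reads cannot be told from separate molecules in these values.

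All 6 libraries entered 1 fit of log2(value + 1) on treatment with limma 3.58.1 (R 4.3.3; Python 3.11.15 for summaries), the variance following the mean, with no filter and Benjamini-Hochberg adjustment over 20066 genes. The pseudocount of 1 understates changes of low genes. The fit was tested on simulated data. Members and lists were chosen with earlier results of these data known. All members were named. Of each related list the called genes were named (at most 3, by smallest p) or, with none called, the 2 with the highest mean. Of the cardiomyocyte, fibroblast, endothelial, mural and proliferation lists the 2 highest were named. No epicardial, macrophage or Schwann cell marker was named with its values. *Acly*, *Acacb*, *Abca1* and *Pln*, and the markers listed as missing, were named after their values were seen. Exon lengths, GC content and overlaps came from GENCODE M21, where 99% of genes had the deposited position. For 9 symbols used more than once, 1 gene was taken. The αKG concentration is that of the labels, and the study's methods give another. Alternatives changed the filter, pseudocount, variance model, scaling, unit (limma-voom on estimated reads), replicate block, GC content and length, averaging of DMSO replicates 2 and 3, threshold and each library in turn. Some genes of these lists are not reported here and enter no list count. Protein sequences were not used here.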

Additional observations from a re-analysis of the deposited data

How the results depend on the processing

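The median log2 fold change of the members stayed between 0.30 and 0.41 under every alternative run, but the number of calls did not stay. With a pseudocount of 0.1, 346 genes, 5 members and 3 of the 47 related genes were called, and without a trend of the variance 27, 0 and 0 (limma). In the fit without the trend 16 members and 4160 of all genes still had an unadjusted p under 0.05. limma-voom on estimated reads called 338 genes, 6 members and 3 related genes. With DMSO replicates 2 and 3 averaged, 19 genes, 0 members and 0 related genes passed (limma). In that fit 14 members and 3518 of all genes had an unadjusted p under 0.05. In the main design 5648 genes, 17 members and 18 related genes did. Correcting for GC content and length gave 1235 genes, 11 members and 9 related genes (5 uncorrected), and with the block added 1746, 12 and 8. The share of called genes that were higher was then 42.5% and 41.5%, against 74.8% uncorrected, while 9 of 11 and 10 of 12 called members were higher. Leaving out 1 library gave 0 to 7466 genes, 0 to 20 members and 0 to 24 related genes, the highest without αKG replicate 3. The cause was not tested.

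Replicate numbers recur in both groups, and the deviations of same-numbered libraries correlated at only -0.074, 0.136 and 0.002. These correlations were taken without correcting for GC content and length, and cannot show that same-numbered libraries share nothing else. Whether they share an isolation or a batch was not tested. With a replicate block, 46 genes, 1 member (*Insig1*) and 0 related genes passed (limma). In that fit 16 members and 5160 of all genes had an unadjusted p under 0.05.

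Over 17 refits of the 30 members (510 values), 75 lost a call, 16 gained one and 11 changed sign, none of the latter in a called member. *Hmgcs1* was at -0.00 with GC content and length corrected, with and without the block, and *Erlin2* at -0.07 in both and at -0.00 with limma-voom. With quantile normalization, which moved the median of all genes from 0.04 to -0.06, *Mvk* was at -0.02, *Insig2* at 0.03 and *Mbtps1* at 0.00. Leaving out 1 library moved *Ebp* between -0.08 and 0.07, *Insig2* between -0.07 and 0.03, *Mbtps1* between -0.04 and 0.02 and *Erlin2* between -0.02 and 0.09.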
